A study of Homo sapiens with 6 samples.

Results

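Cell adhesion molecules built from immunoglobulin-like domains were followed in the cell line DMS114, which was established from a human small cell lung cancer. The 10 genes were NCAM1, NCAM2, L1CAM, CHL1, NRCAM, NFASC, CADM1, CADM3, CADM4 and ALCAM, found by gene symbol among the 36458 symbols of the count table. All 10 had a row, and 8 passed the filter on low counts and entered the test. The 3 treated libraries came from cells given 2.5 mM β-alanine for 48 h, and the control group of 3 libraries came from cells given the same volume of vehicle. The line, the culture time and the preparation of polyadenylated RNA were shared by both groups, and no genetic change was named for either. Whether the libraries of a group were separate cultures is not stated in the labels, and the p-values therefore describe only the spread among these libraries, which may be technical.

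These proteins sit in the plasma membrane with their immunoglobulin-like domains outside the cell, where they bind copies of themselves or other adhesion molecules on a neighbouring cell. Neural cell adhesion molecule (NCAM1, also called CD56) guides neurite growth, carries polysialic acid, and is a diagnostic marker of small cell lung cancer. The L1 family (L1CAM, CHL1, NRCAM and NFASC) holds axons together and ties the membrane to ankyrin and spectrin inside the cell. The CADM proteins, or SynCAMs, bridge synapses and epithelial junctions, and CADM1 was named a tumour suppressor in lung cancer.

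Depth ran from 14433801 to 32909568 counts in the treated libraries and from 18814876 to 22072654 in the controls. Treated library 1 stood apart from its group on the leading principal component, at -5.60 against -17.6 and -17.5 for treated libraries 2 and 3, with the controls between 11.9 and 14.7. Of the markers of the labelled cell type, the synaptic vesicle protein gene SYP had 86.3 ± 4.26 CPM after β-alanine and 61.0 ± 4.23 in the controls (SD, n = 3 each), and the granule protein gene CHGA had 28.8 ± 2.41 CPM after β-alanine and 19.6 ± 2.06 CPM in controls. The neuroendocrine factor gene INSM1, at 0.164 CPM after β-alanine and 0.229 CPM in controls, was near the floor. YAP1, a factor of the non-neuroendocrine subtype, had 129 ± 5.82 CPM after β-alanine and 124 ± 4.91 CPM in controls. CPM is a gene's count per 1000000 counts of its library, with library totals scaled by TMM.

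After β-alanine, 3 of the 8 tested adhesion genes were lower and 0 were higher at a threshold of 0.05 on the p-value of edgeR's quasi-likelihood F test, adjusted by Benjamini and Hochberg's method over all 17331 tested genes. This threshold is meant wherever a gene is said to have risen, fallen or been called, and every adjusted p given is from edgeR unless DESeq2 is named. The 3 were NCAM1, CADM1 and CADM4. This was 37.5% of the 8, and over all tested genes 27.9% were called, 13.8% lower and 14.1% higher, so a call as such was common in this comparison. The list that checks the cell type had 5 tested genes, of which SYP rose by 0.50 ± 0.05 and CHGA by 0.56 ± 0.08 on the log2 scale (SE), and 0 fell. The others were the neuroendocrine factor gene NEUROD1, with a log2 change of -0.24 ± 0.20, YAP1 and REST, a repressor of neuronal genes, with 0.06 ± 0.04 and 0.09 ± 0.05, none of them called. At an unadjusted p under 0.05, 4 of the 8 adhesion genes were lower and 0 higher, beside 19% lower and 19.4% higher over all tested genes, and neither DESeq2 nor limma-voom called any of them higher. All 8 fitted changes were negative, with a median log2 change of -0.25, against -0.003 over all tested genes. The groups did not overlap for 6 of the 8, where 39.1% of all tested genes did not overlap. Of the 3 calls, CADM1 held in all 15 alternative fits. NCAM1 and CADM4 lost theirs in DESeq2 and without treated library 2, treated library 3 or control library 1, so that CADM1 was then the only call. Over all genes given an adjusted p, 26.1%, 17%, 18.9% and 20.7% were called in these fits, in that order.

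**Figure D1:**
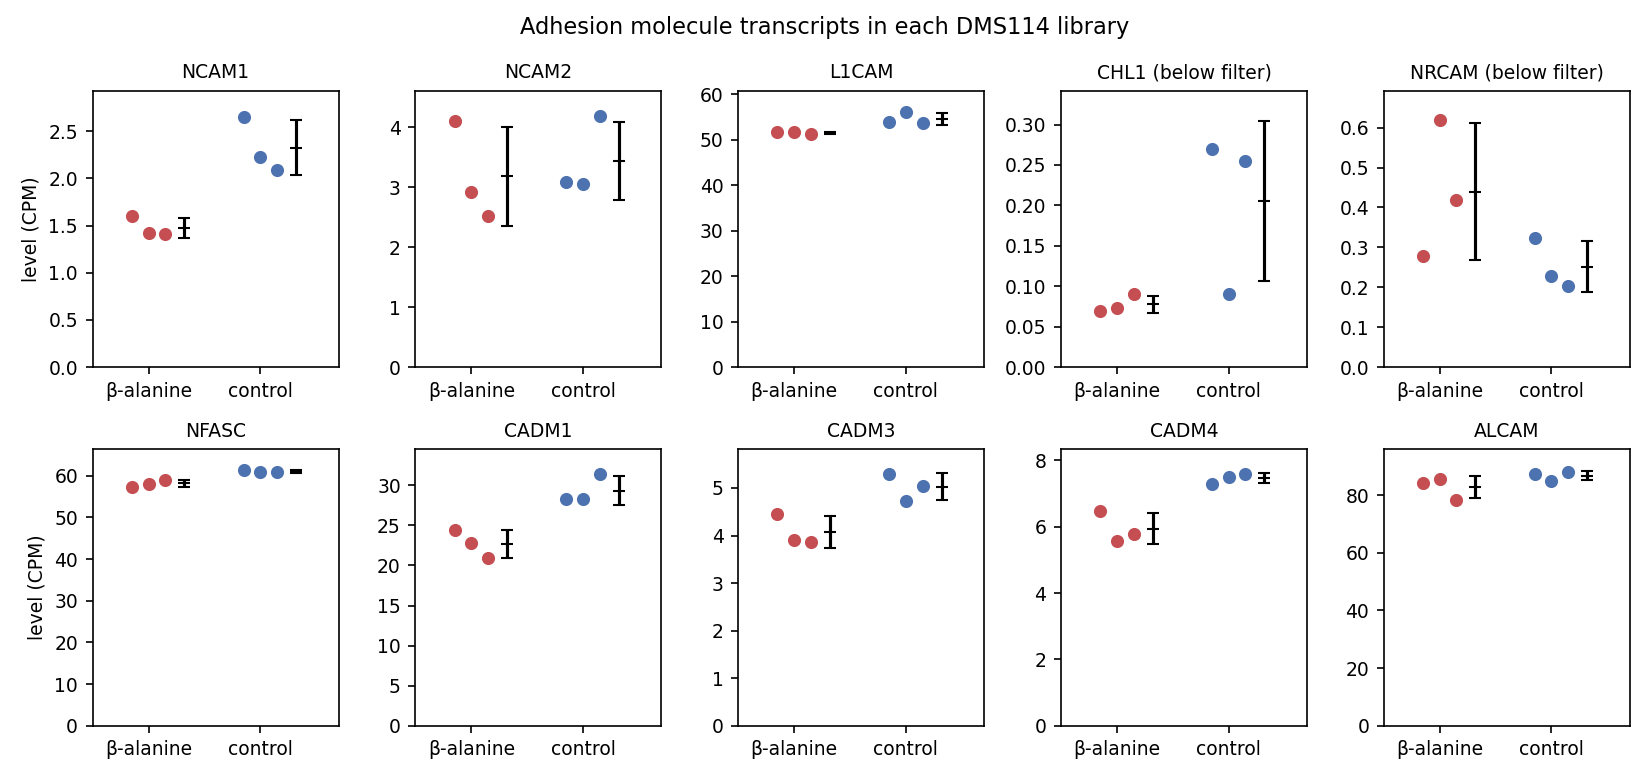
Each panel plots one adhesion gene, with its level in CPM on a linear axis from 0, a point for each library (β-alanine red, control blue), and the mean and SD beside the points. NCAM1, CADM1, CADM3 and CADM4 lie lower in all 3 treated libraries than in all 3 controls. So do L1CAM and NFASC, by a few CPM in much higher levels, and CHL1 near the floor. The groups of NCAM2, ALCAM and NRCAM overlap, and NRCAM, also near the floor, has the higher mean after β-alanine.

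NCAM1 carried the largest fitted change of the 8 tested genes and the lowest level per length among them. Its counts were 23, 39 and 47 in treated libraries 1, 2 and 3, and 49, 49 and 41 in controls 1, 2 and 3. Scaled to CPM, these were 1.60, 1.42 and 1.41 after β-alanine and 2.65, 2.23 and 2.09 in controls. All 3 treated libraries lay below all 3 controls, and the highest treated library was the shallowest one. The log2 change was -0.67 ± 0.20 (SE), with a 95% interval from -1.09 to -0.25 and an edgeR adjusted p of 0.0156, lower in 3 of 3 libraries. Without control library 1 the change was -0.57 (edgeR adjusted p = 0.0805), without treated library 2 or 3 edgeR's adjusted p was 0.0601 or 0.0637, and in DESeq2 it was 0.0653, while the change itself was -0.65, -0.64 and -0.67 in the last 3 of these fits. NCAM1 lies on the plus strand of chromosome 11 from 112961247 to 113278436 (GRCh38, GENCODE release 29). Antisense transcripts cover 4.33% (NCAM1-AS1) and 1.19% (AP000802.1) of its exon bases, and reads from opposite strands cannot be told apart here, since the use of strand is not stated.

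NCAM2, the paralogue of NCAM1 best known from olfactory axons, showed no such separation. It had 4.11, 2.92 and 2.52 CPM in treated libraries 1, 2 and 3, and 3.08, 3.05 and 4.18 CPM in controls 1, 2 and 3. The groups overlapped, with treated library 1 and control library 3 both above the rest. The log2 change was -0.18 ± 0.19 (edgeR adjusted p = 0.524), and its 95% interval ran from -0.57 to 0.21. The ratio of NCAM1 to NCAM2 counts within a library, which no scaling can change, was 0.39, 0.488 and 0.559 after β-alanine and 0.860, 0.731 and 0.50 in controls. These ratios overlapped between the groups, and the difference between the paralogues in their change was not tested. NCAM2 lies on the plus strand of chromosome 21 from 20998315 to 21543329.

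CADM1, a nectin-like molecule that binds itself and other CADM proteins, had the smallest p-value of the 8 tested genes. Its counts were 351, 626 and 699 in treated libraries 1, 2 and 3, and 523, 623 and 617 in controls 1, 2 and 3. The levels were 24.4, 22.8 and 20.9 CPM after β-alanine and 28.3, 28.3 and 31.5 CPM in controls. Every treated library was below every control, with a gap of several CPM between the groups. CADM1 fell by 0.38 ± 0.07 on the log2 scale (SE), with a 95% interval of the change from -0.53 to -0.23 and an edgeR adjusted p of 0.000481, lower in 3 of 3 libraries. Over 15 alternative fits the change stayed between -0.43 and -0.32. The gene lies on the minus strand of chromosome 11 from 115169218 to 115504957, and no other annotated gene shares its exon bases.

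CADM4 and CADM3 encode related molecules, CADM4 best known from the contact of Schwann cells with axons and CADM3 from neurons. CADM4 had 6.47, 5.58 and 5.78 CPM after β-alanine and 7.30, 7.50 and 7.60 CPM in controls 1, 2 and 3. No treated library reached the lowest control. Its log2 change was -0.35 ± 0.12 (SE), with an edgeR adjusted p of 0.0284, lower in 3 of 3 libraries. That call was lost when any single library other than treated library 1 was left out (edgeR adjusted p between 0.0541 and 0.128), in DESeq2 (0.0802) and with no low-count filter (0.0514). CADM3 had 4.46, 3.90 and 3.87 CPM after β-alanine and 5.30, 4.73 and 5.05 CPM in controls, again with no overlap. Its log2 change of -0.32 ± 0.14 was close to that of CADM4 but missed the threshold (edgeR adjusted p = 0.0849), and passed it without treated library 1 (0.0430). CADM3-AS1 covers 36.6% of the exon bases of CADM3 on the opposite strand, so its counts are uncertain, although CADM3-AS1 itself had between 0 and 3 counts per library. CADM4 lies on the minus strand of chromosome 19 from 43622368 to 43639839, and CADM3 on the plus strand of chromosome 1 from 159171609 to 159203313.

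Within a library the 3 CADM genes kept similar proportions. CADM1 counts were 3.77, 4.09 and 3.62 times those of CADM4 after β-alanine, and 3.87, 3.78 and 4.14 times in controls. Against CADM3 the ratio was 5.48, 5.85 and 5.42 after β-alanine, and 5.34, 5.99 and 6.23 in controls. Both ratios overlapped between the groups. The ratio of CADM1 to L1CAM did not overlap, at 0.473, 0.442 and 0.409 after β-alanine and 0.526, 0.506 and 0.587 in controls, a pair chosen after the values were seen and not tested. CADM2, the remaining CADM gene and not one of the 10, had 16.0 ± 0.699 CPM after β-alanine and 15.2 ± 1.53 CPM in the controls (SD, n = 3 each). Its log2 change was 0.09 ± 0.09 with a 95% interval from -0.10 to 0.27, and the difference from CADM1 was not tested.

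The 250 bases before a RefSeq transcript start are shown for CADM4, a called gene with such an entry, and for its relative CADM3. Whether these letters bear on the changes was not tested. Capitals mark the GC box GGGCGG, the site known to bind SP1, on either strand. The CADM4 bases are at chr19:43639851-43640100 on the minus strand and the CADM3 bases at chr1:159171365-159171614 on the plus strand (RefSeq, GRCh38.p14). The CADM3 window ends at the 5′ end of the RefSeq gene, while that of CADM4 precedes a start 2134 bases downstream of the gene's 5′ end, so the windows do not hold the same part of each gene.
CADM4: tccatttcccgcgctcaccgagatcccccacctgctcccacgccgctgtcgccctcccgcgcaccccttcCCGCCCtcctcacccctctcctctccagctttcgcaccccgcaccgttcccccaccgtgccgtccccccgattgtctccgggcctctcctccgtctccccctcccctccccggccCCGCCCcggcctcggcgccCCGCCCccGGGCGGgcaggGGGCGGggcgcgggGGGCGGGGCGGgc
CADM3: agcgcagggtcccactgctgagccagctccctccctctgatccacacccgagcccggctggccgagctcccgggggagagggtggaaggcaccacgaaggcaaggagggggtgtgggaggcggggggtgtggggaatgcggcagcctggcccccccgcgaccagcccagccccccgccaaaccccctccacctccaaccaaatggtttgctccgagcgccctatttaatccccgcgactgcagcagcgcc
CADM4 held 7 matches, counting 2 that share 1 base, a number reached by 1.12% of 35114 promoter windows of the same length, and CADM3 held 0. The GC content was 79.2% for CADM4 and 70.4% for CADM3, against a median of 58% over all windows. The observed-to-expected CpG ratio was 0.882 and 0.520, against a median of 0.558. RefSeq windows were matched for 8 of the 10 genes, all but NCAM1 and CADM1, and the first one listed was used for the 4 genes with several. The start site was the 5′ end of the RefSeq gene for NFASC, CADM3 and ALCAM. It lay downstream of that end by 284 bases for NRCAM, 1126 for CHL1, 2134 for CADM4, 10229 for L1CAM and 148753 for NCAM2. These motif counts therefore do not describe the outermost RefSeq promoter of those 5 genes, although the CADM4 window adjoins the GENCODE gene. For NCAM2 and NRCAM the last bases of the RefSeq entry were not found in a GENCODE transcript of the gene. A GC box was in 5 of the 8, against 42.6% of all windows. The EGR motif GCGNGGGCG was in 2 of the 8 (NRCAM and NFASC), against 8.41%, and the E-box CAGCTG in 1 (L1CAM), against 14%. The AP-1 motif TGANTCA and the NR4A motif AAAGGTCA were in 0 of the 8, against 6.57% and 1.05%. With every listed window taken, the AP-1 motif was in 1 of the 8 and the other 4 counts were the same. GC boxes and EGR motifs can overlap in their letters, and both strands were searched for each motif.

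The L1 family held 2 abundant members, L1CAM and NFASC, and 2 near the detection floor, CHL1 and NRCAM. L1CAM, which promotes axon growth and tumour cell migration, had 51.7, 51.6 and 51.2 CPM after β-alanine and 53.8, 56.0 and 53.6 CPM in controls. NFASC, which organises nodes of Ranvier and the axon initial segment, had 57.4, 58.1 and 59.1 CPM after β-alanine and 61.3, 60.9 and 60.8 CPM in controls. For both genes the 3 treated libraries lay just below the 3 controls, and neither difference passed the test. The log2 change of L1CAM was -0.08 ± 0.05, with a 95% interval from -0.19 to 0.02 (edgeR adjusted p = 0.234). That of NFASC was -0.07 ± 0.05, with an interval from -0.17 to 0.03 (edgeR adjusted p = 0.327). These genes had between 742 and 1972 counts per library, and a change of the size fitted for CADM1 lies outside both intervals. L1CAM counted 0.901, 0.888 and 0.866 times NFASC after β-alanine and 0.877, 0.920 and 0.882 times in controls. L1CAM lies on the minus strand of chromosome X from 153861514 to 153886174 and shares 6.04% of its exon bases with U52112.1 on the same strand and 4.94% with LCA10 on the other. NFASC lies on the plus strand of chromosome 1 from 204828651 to 205022822.

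CHL1 and NRCAM did not pass the low-count filter. CHL1, the close homologue of L1, had 1, 2 and 3 counts in the treated libraries and 5, 2 and 5 in the controls. The pooled level was 0.0798 CPM after β-alanine (95% Poisson interval 0.0293 to 0.174) and 0.200 CPM in controls (0.103 to 0.349). NRCAM, which clusters channels at nodes together with NFASC, had 4, 17 and 14 counts after β-alanine and 6, 5 and 4 in controls, or 0.466 CPM (0.324 to 0.648) and 0.250 CPM (0.140 to 0.412) pooled. The intervals overlap for both genes and cover counting error only, and their overlap is not a test of a difference. In the edgeR fit with no low-count filter the log2 changes were -1.33 ± 0.85 for CHL1 (adjusted p = 0.399) and 0.89 ± 0.51 for NRCAM (adjusted p = 0.306). CHL1 lies on chromosome 3 from 196596 to 409417 and NRCAM on chromosome 7 from 108147623 to 108456717.

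ALCAM, also called CD166, binds itself and CD6 on T cells, and had the highest level of the 10 per length. It had 84.4, 85.8 and 78.4 CPM after β-alanine and 87.3, 85.0 and 88.2 CPM in controls. The groups overlapped, since treated library 2 lay above control library 2. The log2 change was -0.07 ± 0.05, with a 95% interval from -0.17 to 0.03 (edgeR adjusted p = 0.294). The gene lies on the plus strand of chromosome 3 from 105366909 to 105576900.

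**Figure D2:**
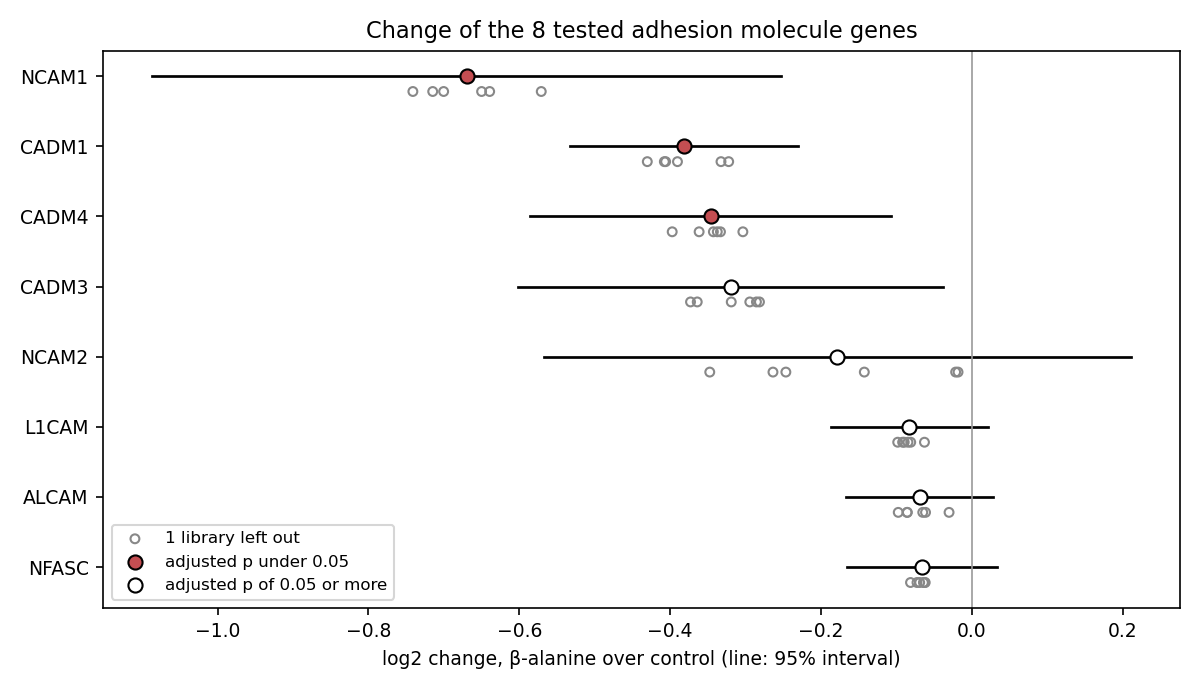
The log2 change, β-alanine over control, is on the horizontal axis for the 8 tested genes. Filled points passed an adjusted p of 0.05 in edgeR, lines are 95% intervals before adjustment, and small open circles are the changes with 1 library left out. NCAM1 has the largest change (-0.67) with the widest interval, and L1CAM, ALCAM and NFASC sit within 0.1 of 0.

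Levels between genes were compared per length, as CPM per kilobase of exon in GENCODE release 29. In controls the order was ALCAM (12.1 ± 0.229), L1CAM (7.50 ± 0.184), CADM4 (3.33 ± 0.068), NFASC (2.87 ± 0.0122), CADM1 (2.67 ± 0.165), CADM3 (1.31 ± 0.074), NCAM2 (0.410 ± 0.077), NCAM1 (0.182 ± 0.0228), NRCAM (0.0308 ± 0.00779) and CHL1 (0.0173 ± 0.00838), each in CPM per kilobase (SD, n = 3). The libraries of neighbouring genes in this order did not overlap in controls, and came within rounding of each other for NFASC, at 2.86 to 2.88, and CADM1, at 2.57 to 2.86. After β-alanine CADM4 (2.65 ± 0.209) ranked below NFASC (2.74 ± 0.0407), and these overlapped, with CADM4 libraries from 2.49 to 2.88 and NFASC libraries up to 2.78. The other 8 genes kept their place. NCAM1 was among the 3 lowest of the 10 per length in both groups. The exon lengths take in every annotated transcript, so a gene with long unused exons is placed too low.

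**Figure D3:**
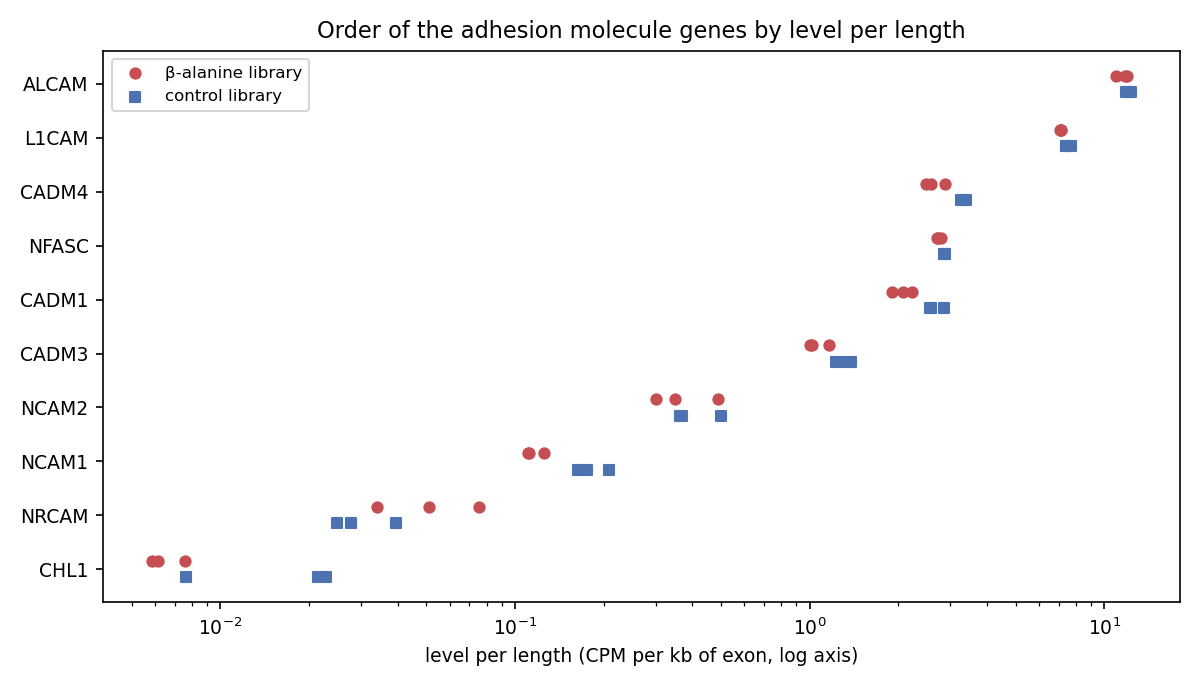
The 10 genes are ordered from high to low by their level per length in controls, in CPM per kilobase of exon on a log axis. Red circles are treated libraries and blue squares control libraries. ALCAM and L1CAM lead, and NRCAM and CHL1 lie lowest in both groups.

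Other immunoglobulin-type adhesion genes were taken from a list of 28. This list and those of partners and enzymes below were chosen with earlier results of these data known. Their shares called are therefore descriptions and not tests. Of 14 tested, 7 fell and 1 rose by edgeR, or 57.1% called beside 27.9% of all tested genes, with a median log2 change of -0.26. IGSF9, which shapes dendrites and inhibitory synapses, had 5.64, 3.79 and 4.97 CPM after β-alanine and 10.2, 10.1 and 9.43 CPM in controls, a log2 change of -1.07 ± 0.13 (SE). THY1, a glycolipid-anchored molecule of neurons, had 43.0, 38.6 and 34.5 CPM after β-alanine and 53.5, 52.4 and 52.1 CPM in controls. In both genes the groups were far apart. SDK2, which matches synaptic partners in the retina, changed by -0.30 ± 0.06, NECTIN1, of adherens junctions, by -0.27 ± 0.06, KIRREL1, of the kidney filtration slit, by -0.25 ± 0.06 and SIRPA, the receptor of CD47, by -0.37 ± 0.09. The 1 that rose, named after its value was seen, was NECTIN2, by 0.15 ± 0.05, a call lost in DESeq2 and without treated library 2 or any 1 of the controls. SDK1, also named after its value was seen, fell with an edgeR adjusted p of 0.04997, and its groups overlapped. With scaling by library totals 6 relatives fell. THY1 shares 10.7% of its exon bases with AP003396.5 on the other strand.

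Genes whose products bind the cytoplasmic tails or outer domains of these molecules moved both ways. Of 24 tested partners, 7 rose and 4 fell by edgeR, or 45.8% called beside 27.9% of all tested genes, with a median log2 change of 0.03. Without treated library 3 only 3 rose, and without control library 2 only 4. Over all genes 1652 and 1570 rose in these 2 fits, against 2441 in the original fit. FGFR1, the growth factor receptor engaged by NCAM1 and L1CAM, had 116 ± 6.76 CPM after β-alanine and 143 ± 4.52 CPM in the controls (SD, n = 3 each), and fell by 0.31 ± 0.05 on the log2 scale (SE). EPB41L3, a band 4.1 protein that binds CADM1, changed by -0.52 ± 0.13. Its relative EPB41L2 rose by 0.20 ± 0.04. SPTBN1, the spectrin chain beneath ankyrin, changed by -0.19 ± 0.04. SDCBP (syntenin), a PDZ scaffold, rose by 0.35 ± 0.04, and NCAN, a proteoglycan that binds NCAM1 and L1CAM, by 0.45 ± 0.09. The partner PALS2 was found under its older symbol MPP6.

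Of 10 tested enzymes that glycosylate or cleave these molecules, 2 rose and 2 fell by edgeR, or 40% called beside 27.9% of all tested genes. BACE1, a protease that sheds CHL1, had 19.4 ± 2.53 CPM after β-alanine and 26.8 ± 0.197 CPM in the controls (SD, n = 3 each), a log2 change of -0.49 ± 0.08 (SE). Of its exon bases 26% are shared with BACE1-AS and 17.2% with RNF214, so its counts are uncertain. B3GAT1, which makes the HNK-1 sugar carried by NCAM1 and L1CAM, changed by -0.32 ± 0.08. The sheddase ADAM17 rose by 0.16 ± 0.05. Of exon bases of ADAM17, 12.3% are shared with IAH1. ST8SIA2, which builds polysialic acid on NCAM1, had 2.20 ± 0.276 CPM after β-alanine and 2.88 ± 0.287 CPM in controls (SD, edgeR adjusted p = 0.0913), and was not called. The listed gene ST8SIA3 went the other way, with 2.66 ± 0.380 CPM after β-alanine and 2.11 ± 0.534 CPM in controls. It was not called either (edgeR adjusted p = 0.172). ST8SIA4, with at most 3 counts in a library, was not tested. The calls of B3GAT1 (edgeR adjusted p = 0.0605) and ADAM17 (up to 0.136) were lost without single libraries, treated library 2 for both and control library 1 or 2 for ADAM17. Without treated library 1, 4 enzymes rose, and without treated library 2, control library 1 or control library 2 only 1 did. Over all genes 3204, 1501, 1891 and 1570 rose in these fits, in that order, against 2441 in the original fit.

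**Figure D4:**
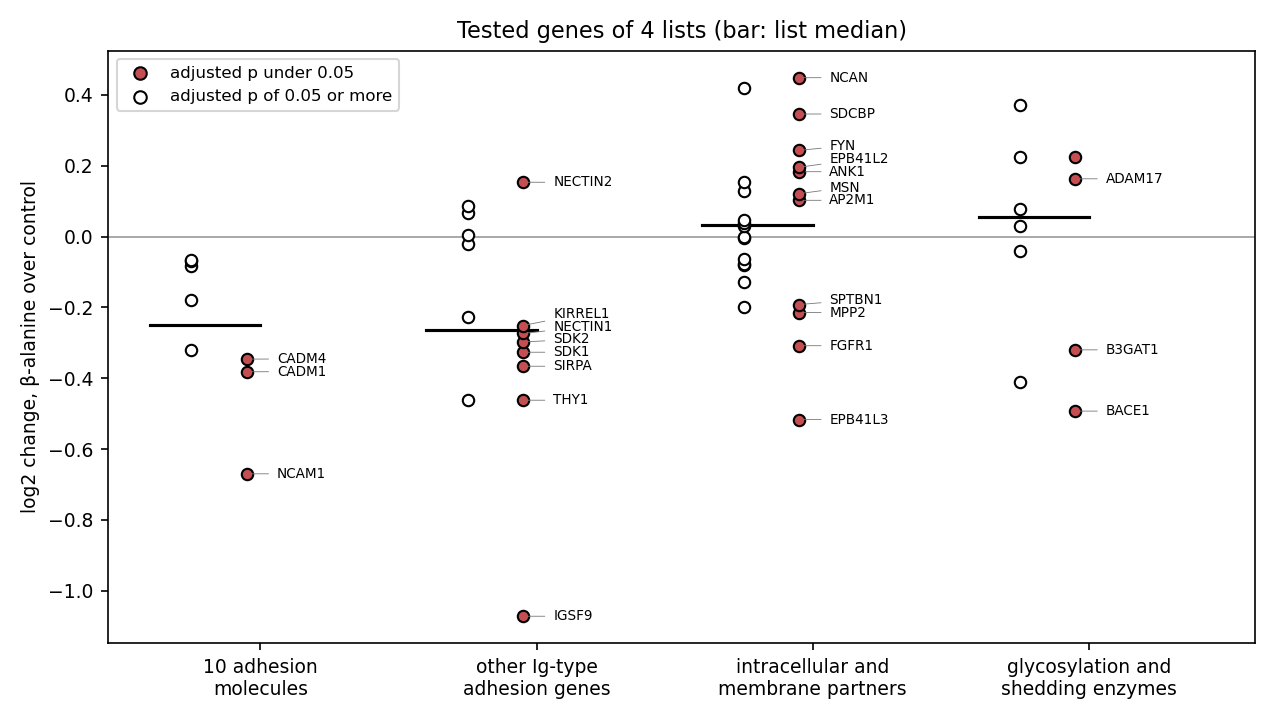
Each point is a tested gene, with its log2 change, β-alanine over control, on the vertical axis and its list on the horizontal axis. Filled points passed an adjusted p of 0.05 in edgeR, all but 1 of them named, and bars are list medians, at -0.25 and -0.26 for both groups of adhesion genes and 0.03 and 0.05 for partners and enzymes.

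By likeness of levels, the genes closest to NCAM1 were TMEM218, CERS2 and AUP1, with Pearson's r of 0.997, 0.996 and 0.995 over the 6 libraries on the scale of log2 CPM with a pseudocount of 0.5. With 6 libraries in 2 groups such values were common, and 8.23% of 13851 genes exceeded 0.9. CERS2 shares 20.4% of its exon bases with SETDB1 and 16.8% with AL590133.2, and AUP1 18.3% with HTRA2, each on the other strand. The closest to ALCAM, the gene of highest mean CPM, were AL355472.1, DOP1A and TMEM65, with r of 0.979, 0.977 and 0.973, and 0.498% of 13850 genes exceeded 0.9. AL355472.1 shares 24% of its exon bases with COA6 and DOP1A 10.8% with PGM3, again on the other strand.

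Markers of other cell types were lower in sum after β-alanine, though not each of them. Their summed level, over 16 of 17 listed genes, ran from 249.6 to 266 CPM after β-alanine and from 288 to 304 CPM in controls. Of the 16, 11 stayed under 1 CPM in every library, and of these the leucocyte gene PTPRC and the glial gene SOX10 had 1 count each in all. The sum was carried by the matrix protein genes DCN and LUM and the neuronal gene RBFOX3. DCN, which fell, had 159 ± 6.82 CPM after β-alanine and 191 ± 5.03 CPM in controls (SD). LUM had 53.4 ± 1.92 CPM after β-alanine and 57.1 ± 2.14 CPM in controls, and RBFOX3 31.8 ± 1.11 CPM after β-alanine and 34.7 ± 0.748 CPM in controls, neither called. The other neuronal marker, SLC17A7, had 11.5 ± 1.27 CPM after β-alanine and 10.8 ± 0.334 CPM in controls, a log2 change of 0.11 ± 0.10 that was not called. The fibroblast collagen gene COL1A2 averaged 0.109 CPM after β-alanine and 0.0541 CPM in controls. Their part in the lower levels of NCAM1, CADM1 and CADM4 was not tested. In these bulk libraries, fewer cells of a type and less RNA per cell cannot be told apart. Without treated library 1, which stood apart, the log2 changes of NCAM1, CADM1 and CADM4 were -0.71, -0.43 and -0.40, each still called by edgeR. In that fit 36.2% of all tested genes were called. Leaving out any other single library lost the call of CADM4. The call of NCAM1 was lost too without treated library 2, treated library 3 or control library 1.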

How the data were processed

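The values deposited by the authors are raw read counts for each gene symbol, with 1 column per library, and columns were matched to samples by their titles. Per the submitters' processing notes, the build was GRCh38 and the tools included STAR 2.7.3a, featureCounts 2.0.1, Trimmomatic 0.39 and bcl2fastq. Settings, annotation and strand use are not stated there.

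Low-count genes were removed with filterByExpr, which left 17331, and totals were scaled by TMM. Group was the only term of a model fitted to all genes and all 6 libraries with edgeR 4.0.16 in R 4.3.3 (glmQLFit with robust shrinkage, then the two-sided glmQLFTest). Its p-values were adjusted by Benjamini and Hochberg's method, with a threshold of 0.05. The SE is the log2 change divided by the square root of F, and fold changes are β-alanine over control. The common biological coefficient of variation was 4.35%. Libraries of a group differed by more than sampling noise (chi-square per gene 1.88 to 4.47). Treated library 1 had 3.91 and 4.47 against treated libraries 2 and 3, and 4.31 to 5.12 against the controls. Treated libraries 2 and 3 had 10.85 to 14.27 against the controls. These values also depend on depth, and treated library 1 was the shallowest. The procedure was tested on simulated data. Where the simulated spread followed gene-wise estimates, false calls exceeded the nominal rate and the test missed the limit first set for it. After that failure was seen, a different, lower limit was set for simulations whose spread followed the smooth trend, which met it, and none was kept for the gene-wise ones. Calls near the threshold, such as those of NCAM1 and CADM4, are less certain for this reason.

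The adhesion genes and the lists of relatives, partners, enzymes and markers were chosen with earlier results of these data known, so no p-value was computed for a list. List genes called by the test were named, at most 6 a list by smallest p. Listed genes without a row were not analysed here. Some listed genes enter the counts but are not reported here by name. Alternatives were other scalings and filters, DESeq2 1.42.0, limma-voom (limma 3.58.1), no robust shrinkage, a replicate block, an adjusted p under 0.01 and leaving out each library. Positions and exon lengths came from GENCODE release 29 and upstream sequences from RefSeq. Python 3.11.15 and matplotlib 3.10.9 made the figures.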

Additional observations from a re-analysis of the deposited data

How the results depend on the processing

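Each of the 8 tested adhesion genes was refitted under 15 alternatives, 120 fits in all, and no change reversed its sign. In 108 of these the side of the threshold was that of the original fit, in 11 a call of NCAM1 or CADM4 was lost, and in 1 CADM3 was gained. The calls among the 8 adhesion genes were 1 with DESeq2, 1 at an adjusted p under 0.01, and between 1 and 4 with single libraries left out. DESeq2 called 26.1% of all genes given an adjusted p. With treated library 2, treated library 3 or control library 1 left out there was 1 call, CADM1 in each case. Over all tested genes 17%, 18.9% and 20.7% were then called. The 4 calls came without treated library 1, where 36.2% of all tested genes were called. Over all genes, an adjusted p under 0.01 left 1454 higher and 1391 lower. With single libraries left out these counts ran from 1501 to 3204 higher and from 1473 to 3294 lower, lowest without treated library 2 (1501 and 1473) and nearly as low without control library 2 (1570 and 1488). Among relatives, DESeq2 called 0 higher. With libraries left out 0 to 1 relatives were higher, 3 to 7 partners higher, 1 to 4 enzymes higher and 1 to 3 enzymes lower. Of 19 list genes named by the rule, 17 kept their call in all 15 alternatives. Titles give both groups the numbers 1 to 3. Same-numbered libraries deviated from their group means with correlations of 0.107, -0.007 and 0.184, and differently numbered ones with correlations from -0.169 to 0.028. These values do not decide whether the numbers mark pairs, and the original fit did not take them as pairs. With the replicate block 3 adhesion genes were called lower, the same 3. Over all genes 2564 were then higher and 2608 lower, against 2441 and 2389 in the original fit. Scaling by library totals gave a median log2 change over all genes of 0.014, against -0.003 with TMM, and changed no call among the adhesion genes. Depth limits CHL1 and NRCAM, which have at most 17 counts in a library, and NCAM1, with at most 49.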
